A study of Homo sapiens with 2 samples.

Results

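Kallikrein-related peptidases are a family of secreted serine proteases encoded side by side in a cluster on human chromosome 19. Values were taken for 10 family genes, KLK5, KLK6, KLK7, KLK8, KLK10, KLK11, KLK12, KLK13, KLK14 and KLK15, out of 17687 named genes on the array. The rows were selected by gene symbol, and this family was chosen from the study with the differences between its arrays already known. The differences of these genes are therefore given as a description, and none was tested. All 10 were found, each with 1 probe set.

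The cells were SW48, a human cell line established from a colorectal cancer and grown here with serum, and their total RNA was hybridised to whole-transcript GeneChips. The siYY1 cells had received a small interfering RNA (siRNA) against YY1, a zinc finger protein that binds promoters and either raises or lowers transcription, and the siControl cells a negative control siRNA. Both siRNAs were used at 5 nmol/L, and RNA was taken after 3 days. Each group had 1 array, YY1 was targeted with a single siRNA, and the level of YY1 was not analysed here, so the labels and the depth of the knockdown were not checked.

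These enzymes are made as inactive proenzymes and are activated by removal of a short leading peptide, often by another protease of the same family or by a membrane protease. Most cut after arginine or lysine, as trypsin does, while KLK7 cuts as chymotrypsin does. They are best known from the skin, where they release dead cells by cutting desmosomal proteins, and from prostate, and several are made in excess in carcinomas, those of the colon among them. Serine protease inhibitors outside the cell hold them in check, and some of them signal by cutting protease-activated receptors.

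The promoter sequences below belong to the 3 genes with the largest differences, KLK5, KLK10 and KLK11, and to KLK6 and KLK7, which lie between KLK5 and KLK10 and differed less. They come from RefSeq (build GRCh38.p14), are written along the gene from its upstream end, and hold 250 bases before and 50 after the first listed transcript start. All 5 lie on the minus strand, at chr19:50952989-50953288 for KLK5, chr19:50969542-50969841 for KLK6, chr19:50983868-50984167 for KLK7, chr19:51019812-51020111 for KLK10 and chr19:51027597-51027896 for KLK11. Capitals mark CCAT, the short core of the YY1 binding motif, on either strand, so that ATGG is the same motif read from the other strand.
KLK5: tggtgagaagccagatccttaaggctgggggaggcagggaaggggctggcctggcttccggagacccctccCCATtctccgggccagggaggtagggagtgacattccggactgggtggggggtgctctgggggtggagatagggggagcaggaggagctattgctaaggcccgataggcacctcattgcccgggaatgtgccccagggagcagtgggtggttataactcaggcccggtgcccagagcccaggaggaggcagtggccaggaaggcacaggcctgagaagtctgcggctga
KLK6: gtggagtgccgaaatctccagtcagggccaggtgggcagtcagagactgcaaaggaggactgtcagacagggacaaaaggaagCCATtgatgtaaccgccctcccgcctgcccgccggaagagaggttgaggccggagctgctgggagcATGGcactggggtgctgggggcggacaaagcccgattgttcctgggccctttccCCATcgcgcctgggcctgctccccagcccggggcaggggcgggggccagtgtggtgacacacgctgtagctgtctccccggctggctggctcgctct
KLK7: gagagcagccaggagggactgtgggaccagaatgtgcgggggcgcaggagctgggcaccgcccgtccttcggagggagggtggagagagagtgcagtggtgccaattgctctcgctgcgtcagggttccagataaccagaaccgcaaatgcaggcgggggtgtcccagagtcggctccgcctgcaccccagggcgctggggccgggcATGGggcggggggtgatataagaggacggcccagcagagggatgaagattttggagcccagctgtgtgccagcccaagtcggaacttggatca
KLK10: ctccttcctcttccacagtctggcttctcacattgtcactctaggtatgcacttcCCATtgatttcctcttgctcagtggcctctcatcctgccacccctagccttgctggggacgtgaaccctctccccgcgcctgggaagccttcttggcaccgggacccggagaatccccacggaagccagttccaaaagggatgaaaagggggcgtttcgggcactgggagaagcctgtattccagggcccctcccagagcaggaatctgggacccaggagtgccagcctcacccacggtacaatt
KLK11: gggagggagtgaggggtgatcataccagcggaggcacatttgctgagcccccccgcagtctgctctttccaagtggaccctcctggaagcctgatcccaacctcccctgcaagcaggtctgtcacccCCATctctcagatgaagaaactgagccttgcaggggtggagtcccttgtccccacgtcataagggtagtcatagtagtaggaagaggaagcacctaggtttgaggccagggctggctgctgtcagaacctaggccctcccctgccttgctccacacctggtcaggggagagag

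CCAT was found in the first listed promoter of all 9 members that the table holds, but it is short and also occurs in 78.9% of the 27305 genes with a promoter in that table. It stood 1 time in each of the promoters of KLK5, KLK7, KLK10 and KLK11 and 3 times in that of KLK6. Of the 17 promoter windows listed for the members, counting alternative starts, 13 held it. The second windows of KLK10 and KLK11 held none. Searching both strands for the longer form CCATNTT, which contains CCAT, gave 0 of 9 members, against 15.9% of all genes. GCCAT, which also contains CCAT, was in the promoters of KLK6 and KLK13 only, against 38.4% of all genes. CCAT was thus present both in genes that differed and in genes that did not, and a match is not a binding site.

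The promoters of the members also varied in CpG dinucleotides. The first listed windows held 3 in KLK11, 7 in KLK5 and 9 in KLK10, against 15 in KLK6 and 16 in KLK7. Those of the dim genes KLK12 and KLK13, which differed by 0.08 and -0.46, held 7 and 15. The median of the first windows was 7 over the 9 members and 14 over all genes. Counts depended on the start used. The second windows, where listed, held 11 each in KLK10 and KLK11, 15 in KLK7, 23 in KLK13, 2 in KLK14 and 1 in KLK15. KLK14 and KLK15, which differed by 0.05 and 0.25, had 4 each in their first windows, but KLK14 was dim. Whether CpG content bears on the differences was not tested.

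KLK5, KLK10 and KLK11 had lower values on the siYY1 array than on the siControl array, each by more than 2-fold, and the other 7 genes differed by less than 1.5-fold. No member was 1.5-fold higher. On the log2 scale, the smallest of the 3 large differences was -1.19 and the next member stood at -0.46, which leaves the 1.5-fold line in a gap between them. All differences below are siYY1 minus siControl in deposited log2 values. With 1 array per group there is no replicate error and no test for any of them.

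**Figure D1:**
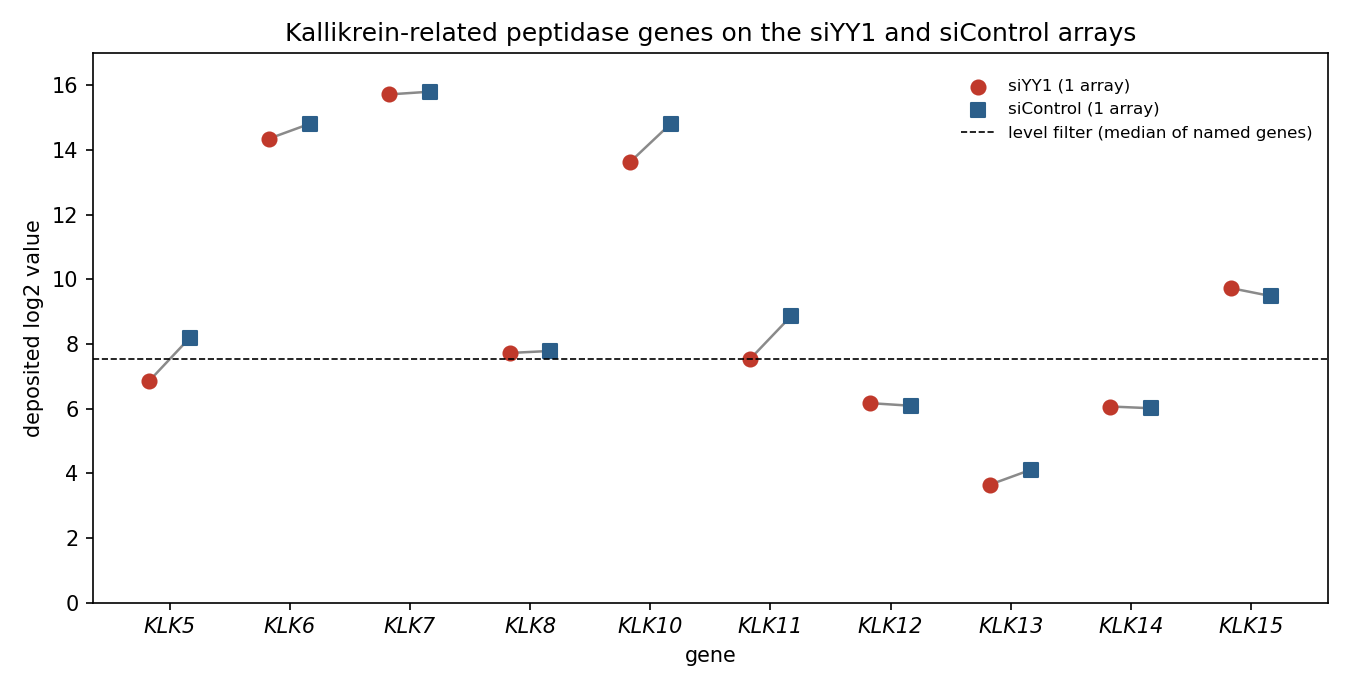
Deposited log2 value of each gene on the siYY1 array (red circles, left of each pair) and the siControl array (blue squares, right), 1 array each, without error bars. The pairs of KLK5, KLK10 and KLK11 slope most; the dashed line is the level filter at 7.54, the median over named genes, and each probe set has its own sensitivity, so heights of different genes are not comparable.

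KLK5, a trypsin-like enzyme that in skin activates KLK7 and KLK14, had a log2 value of 6.85 in siYY1 and 8.20 in siControl. The difference of -1.34 is a 2.54-fold lower value in siYY1. The gene's values lay on either side of 7.54, the median of all named genes, which served as a level filter in place of a detection call. Its mean of 7.53 fell just under that line, so it counted as dim, and its siYY1 value was not shown to be above background.

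KLK11, a trypsin-like enzyme also called hippostasin, had a log2 value of 7.53 in siYY1 and 8.85 in siControl, a difference of -1.32 or 2.50-fold. Its siYY1 value also lay under the level filter, so the size of this difference is uncertain as well.

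KLK10, first described as a gene expressed in normal breast epithelium and lost in breast cancer cells, had a log2 value of 13.62 in siYY1 and 14.81 in siControl. The difference was -1.19, which is 2.28-fold lower. Unlike KLK5 and KLK11, KLK10 stood far above the level filter on both arrays, so its difference does not rest on a dim value.

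Genes of like brightness give a view of how far values scatter between these arrays. Among the 467 named genes whose mean value lay within 0.5 of that of KLK10, the central 95% of differences ran from -0.47 to 0.40, and KLK10 itself had the lowest. For KLK11 the corresponding 1099 genes ran from -0.78 to 0.71, and 2 of them, KLK11 included, lay as low. For KLK5 the 1036 genes ran from -0.71 to 0.73, with 3 as low, KLK5 included. These ranges hold real differences as well as scatter, and the family was chosen with its differences known, so they place the values and test nothing.

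**Figure D2:**
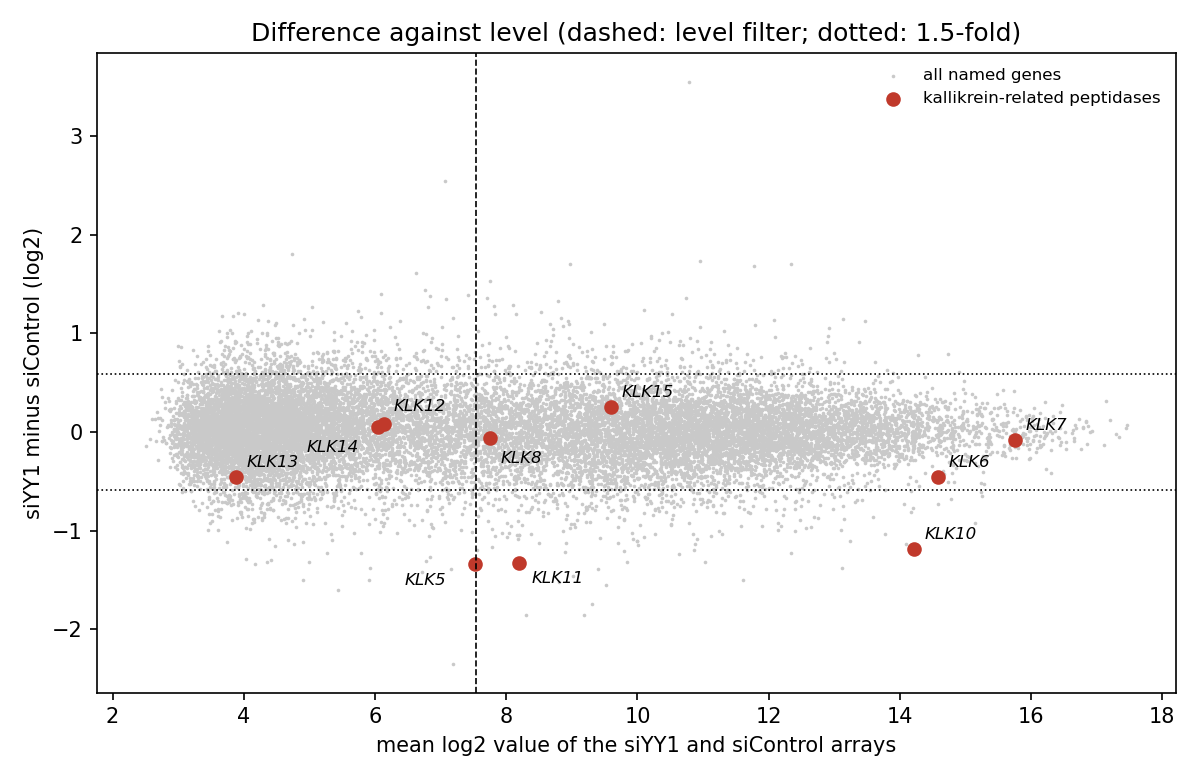
Difference between arrays (siYY1 minus siControl, log2) against the mean log2 value, for all 17687 named genes (grey) and the 10 kallikrein-related peptidase genes (red). KLK5, KLK10 and KLK11 lie at the lower edge of the points at their level or below it, while the other 7 lie inside the dotted 1.5-fold lines.

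KLK6 and KLK13 were next, with differences of almost the same size at very different brightness. KLK6, also called neurosin, is a trypsin-like enzyme of the brain that is made in excess in several carcinomas. It had a log2 value of 14.35 in siYY1 and 14.82 in siControl, a difference of -0.46 or 1.38-fold. Genes of its brightness ran from -0.51 to 0.39 in their central 95%, so KLK6 lay inside that range, near its lower edge. KLK13 had a log2 value of 3.65 in siYY1 and 4.11 in siControl, with a difference of -0.46. Both of its values were far under the level filter, so no expression of KLK13 was shown.

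KLK7 and KLK8 hardly differed between the arrays. KLK7, the chymotrypsin-like enzyme of the skin that cuts corneodesmosin, had a log2 value of 15.72 in siYY1 and 15.80 in siControl, a difference of -0.08. Both values lay close to 16, the log2 ceiling of a 16-bit scanner, though the deposited values were not capped there, since 107 probe sets in siYY1 and 112 in siControl exceeded it. Whether a bright signal hid a difference was not tested. KLK8, or neuropsin, known in mice for its part in synaptic plasticity, had 7.72 in siYY1 and 7.78 in siControl, a difference of -0.06, with both values just over the level filter.

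KLK15, KLK12 and KLK14 had small positive differences. KLK15, which can activate the proenzyme of prostate-specific antigen, had a log2 value of 9.73 in siYY1 and 9.48 in siControl, a difference of 0.25 or 1.19-fold, well inside the range of -0.76 to 0.62 for genes of its brightness. KLK12 had 6.17 in siYY1 and 6.09 in siControl, a difference of 0.08. KLK14, which in skin can signal through the protease-activated receptor PAR2, had 6.07 in siYY1 and 6.01 in siControl, a difference of 0.05. Both KLK12 and KLK14 were under the level filter on both arrays.

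In all, 6 members were kept by the level filter and 4 were not. Of the 6 kept, 2 were at least 1.5-fold lower in siYY1 and 0 at least 1.5-fold higher, beside 3.78% and 3.04% of all 8844 kept genes. Of these 2, KLK10 was above the filter on both arrays and KLK11 in siControl only. Of the 4 dim members, 1 was at least 1.5-fold lower, beside 4.03% lower and 4.92% higher among the 8843 dim genes. All 3 of these were also past 2-fold, which 0.577% of kept and 0.339% of dim genes were on the low side. Since the family was chosen on this same contrast, nothing is read from these shares. The median difference of the 10 members was -0.27, beside 0.01 over all named genes.

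The other genes of the cluster had smaller differences, mostly from dim values. KLK4, a protease of tooth enamel formation, had a log2 value of 5.73 in siYY1 and 5.28 in siControl, a difference of 0.45. KLK3, which encodes prostate-specific antigen, had 7.997 in siYY1 and 7.786 in siControl, a difference of 0.21, and its close homologue KLK2 had 4.99 in siYY1 and 5.06 in siControl. Probes may not fully separate KLK2 and KLK3. KLK1, which encodes tissue kallikrein, differed by -0.35 and KLK9 by -0.13. KLKB1, the plasma kallikrein gene, which lies outside the cluster, differed by 0.48. None of these 6 genes was past 1.5-fold, and KLK3 was the only one kept by the level filter. Over all genes, 3.78% of kept and 4.03% of dim ones were at least 1.5-fold lower. On the high side the shares were 3.04% and 4.92%, so nothing is read from this count. For the dim genes a lack of difference was not shown.

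In gene order along chromosome 19, KLK10 and KLK11 are next to each other, and KLK5 is set apart from them by KLK6, KLK7, KLK8 and KLK9. The genes on either side of the KLK10 and KLK11 pair, KLK9 and KLK12, differed by -0.13 and 0.08, but both were dim. KLK4, the neighbour of KLK5 on its other side, differed by 0.45. Between KLK5 and KLK10, KLK6 differed by -0.46, KLK7 by -0.08 and KLK8 by -0.06. All genes from KLK5 to KLK11 thus had negative differences. Those of KLK7, KLK8 and KLK9 were smaller in size than 0.20, the median absolute difference over all named genes. Nothing is read from the shared sign. KLK7 was bright, at 15.72 in siYY1 and 15.80 in siControl, but the highest values on these arrays were 17.97 and 17.90. Whether its brightness hid a difference was not tested. KLK8 lay just over the level filter. The large differences were thus not next to each other throughout, but whether they belong to a single run of genes was not tested.

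**Figure D3:**
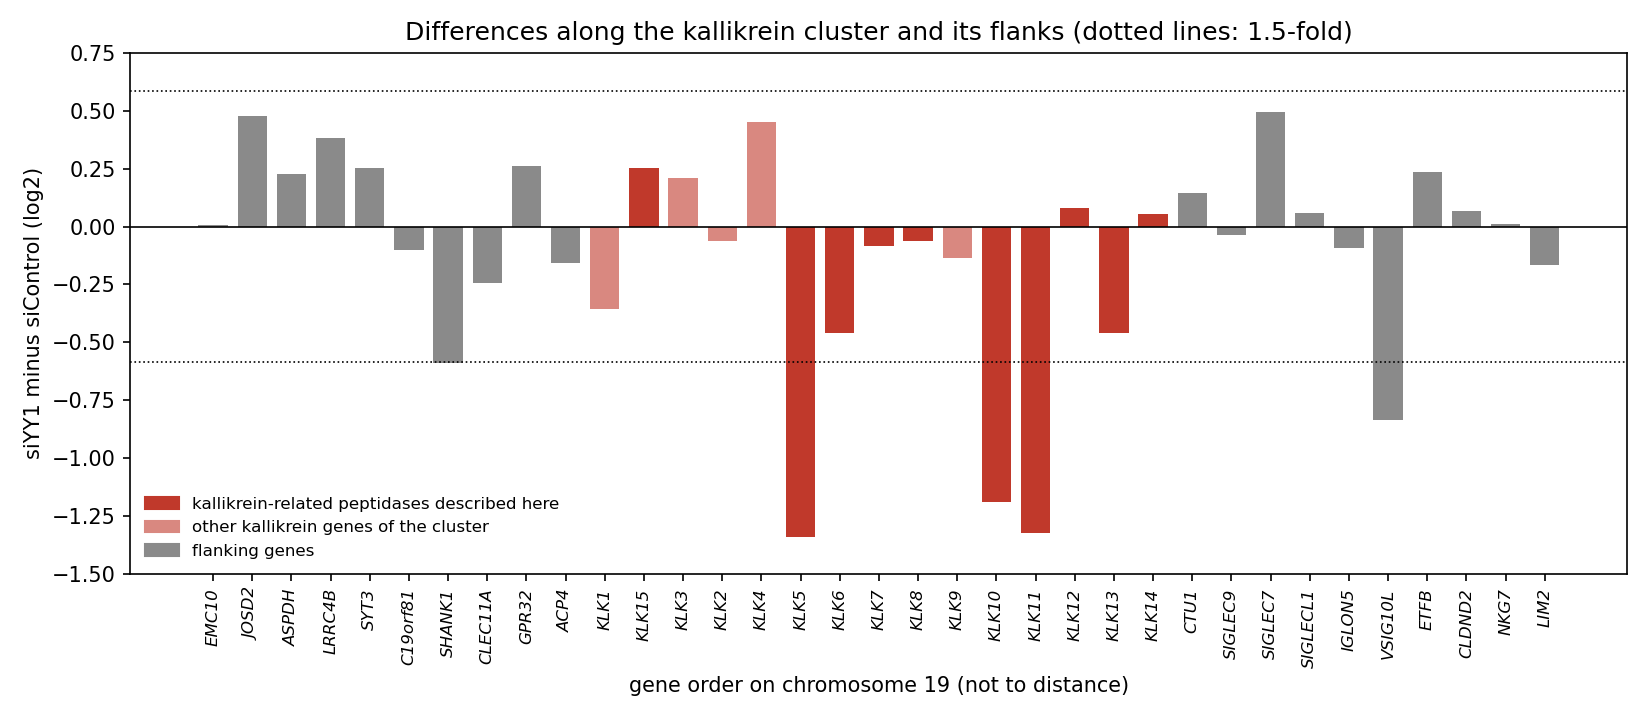
Difference between arrays (siYY1 minus siControl, log2) for the 15 kallikrein genes of the cluster (red and pale red) and 10 named protein-coding genes on each side (grey), in gene order. The bars of KLK5, KLK10 and KLK11 pass a 2-fold lower value, and no flanking gene does.

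Of the 20 flanking genes, 2 were at least 1.5-fold lower in siYY1, 0 were at least 1.5-fold higher, and the median difference was 0.04. VSIG10L, an immunoglobulin-domain gene, had a log2 value of 6.60 in siYY1 and 7.44 in siControl, a difference of -0.83. SHANK1, a scaffold gene of neuronal synapses, had 3.53 in siYY1 and 4.12 in siControl, a difference of -0.59. Both were under the level filter, which 4 of the 20 passed. Among all dim genes, 4.03% were at least 1.5-fold lower and 4.92% at least 1.5-fold higher, and nothing is read from the flanking counts. The immediate neighbours of the cluster, ACP4 on one side and CTU1 on the other, differed by -0.16 and 0.14.

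Among the genes that act with these enzymes, single members differed by more than 1.5-fold, and the medians of the lists lay between 0.02 and 0.19. Over all genes, 3.78% of kept and 4.03% of dim ones were at least 1.5-fold lower. On the high side these shares were 3.04% and 4.92%, and nothing is read from the list counts below. Of 21 measured inhibitors of kallikrein-related and other serine proteases, 3 were at least 1.5-fold lower, 1 was at least 1.5-fold higher and 17 were not past that line, with a median of 0.03. SERPINB1, which inhibits neutrophil proteases, was the only one of these 4 kept by the level filter, with a log2 value of 13.82 in siYY1 and 14.59 in siControl, a difference of -0.77. A2ML1, an inhibitor of the alpha-2-macroglobulin type made in epidermis, differed by -1.11 (4.35 in siYY1, 5.46 in siControl). SERPINA5, the protein C inhibitor, differed by -0.63, and SPINK9, an inhibitor of KLK5 in skin, by 0.79. All of these last 3 were dim. The next highest was A2M, which encodes alpha-2-macroglobulin, at 0.34.

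Of 14 proteases that can act upstream of the family, 1 was lower and 1 higher by at least 1.5-fold, and the median was 0.13. TMPRSS4, a membrane serine protease, had a log2 value of 9.19 in siYY1 and 10.39 in siControl, a difference of -1.20. FURIN, a proprotein convertase, had 9.30 in siYY1 and 8.64 in siControl, a difference of 0.66. ST14, the gene of matriptase, which activates several kallikrein proenzymes in skin, and its partner PRSS8, the gene of prostasin, were bright and differed by -0.09 and 0.23. The cathepsin gene CTSL (-0.24) and the enteropeptidase gene TMPRSS15 (0.31), both dim, lay towards the ends of the list. The values of ST14 and PRSS8 were chosen for mention after they were seen.

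Of 7 measured receptors, 1 was past 1.5-fold, and the median was 0.19. PLAUR, the urokinase receptor, had a log2 value of 10.31 in siYY1 and 11.45 in siControl, a difference of -1.14 or 2.20-fold. The bradykinin receptor genes BDKRB1 (-0.16) and BDKRB2 (0.36) were dim, and EGFR, the gene of the epidermal growth factor receptor, differed by 0.34. F2RL3, which encodes a protease-activated receptor, had 10.90 in siYY1 and 10.67 in siControl and was named after its value was seen.

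Of 18 measured genes of substrates or their close relatives, 1 was lower and 1 higher by at least 1.5-fold, and the median was 0.02. The desmosomal cadherin gene DSC2 had a log2 value of 12.65 in siYY1 and 11.85 in siControl, a difference of 0.80. DSG3, another desmosomal cadherin gene, differed by -0.65 and was dim. The myelin gene MBP (-0.32) and the desmocollin gene DSC1 (0.44), a substrate of the skin enzymes, were dim too. Of 8 steroid and other nuclear receptor genes, 1 was past 1.5-fold, the mineralocorticoid receptor gene NR3C2 at 0.75, and the others lay between the thyroid hormone receptor gene THRB at -0.23 and the glucocorticoid receptor gene NR3C1 at 0.29. ESR1, an estrogen receptor gene, stood at -0.21. Of the receptor genes in this list, 2 passed the level filter, and those named here were all dim.

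**Figure D4:**
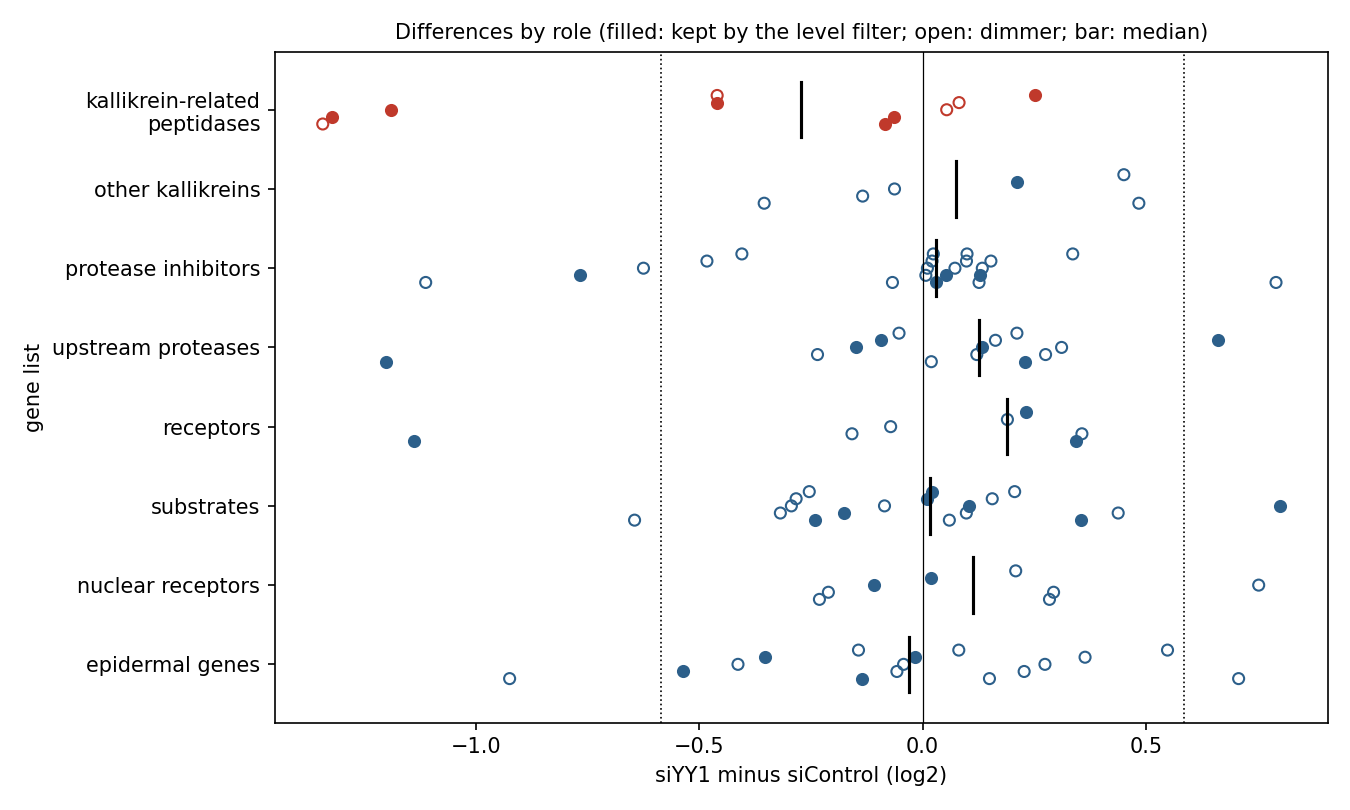
Difference between arrays (siYY1 minus siControl, log2) for each gene of 8 lists, the kallikrein-related peptidases at the top in red. Filled points passed the level filter, open points did not, and black bars are medians, which lie at -0.27 for the peptidases and between -0.03 and 0.19 for the other lists.

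The genes whose pair of values over the 2 arrays came nearest to that of KLK11 were CD68, EPHX2 and MRPS28, at Euclidean distances of 0.17, 0.20 and 0.20 on the log2 scale. Their differences were -1.08, -1.04 and -1.04. With 2 arrays such likeness says only that the values are close.

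Of 11 measured colon epithelium markers, 7 passed the level filter, among them EPCAM (16.24 in siYY1, 16.04 in siControl), KRT8 and CDX2, while CDX1, VIL1, GPA33 and LGALS4 did not. None of the 11 was past 1.5-fold. Markers of leukocytes (6 genes), endothelium (4 genes) and squamous epithelium (5 genes) were all under the filter, and of 6 fibroblast markers COL1A2 alone passed. Of these, the leukocyte marker LYZ (0.98) and the endothelial markers PECAM1 (0.76) and CDH5 (-0.62) were past 1.5-fold, all from dim values. Their part in any result was not tested. Over all genes, 3.78% of kept and 4.03% of dim ones were at least 1.5-fold lower. On the high side the shares were 3.04% and 4.92%, and nothing is read from the marker counts. The lowest fibroblast marker was LUM at -0.57. Most kallikrein biology is known from squamous epithelium. The markers measured for it, KRT5, KRT14, KRT1, KRT10 and IVL, ranged from 3.65 to 5.38 in siYY1 and from 3.55 to 5.30 in siControl. Other epidermal genes did pass the filter. They were KRT16 (9.21 in siYY1, 9.56 in siControl), GRHL3 (12.26 and 12.80), KLF4 (8.60 and 8.62) and OVOL1 (8.09 and 8.22). Fewer cells making a transcript and less of it per cell cannot be told apart in such bulk RNA.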

How the data were processed

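SW48 cells were measured on 1 array for siYY1 and 1 for siControl. The authors deposited 1 value per probe set, taken here as log2 because the values ran from 2.32 to 17.97. The software, the normalization and the log base were not given in the sources used here. Value distributions were nearly equal, with sorted values at most 0.153 apart. Of 21448 probe sets, 17709 carried 1 gene symbol in the platform annotation and 3739 none. Probe sets of a gene were averaged (20 genes). The level filter was a mean at or above 7.54, the median of named genes.

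The members, the gene lists and the rules were chosen with earlier results of these data known. Named are all members and other kallikreins, for the lists of genes acting with the family and of epidermal genes the 2 lowest, the 2 highest and those past 1.5-fold, the nearest and the past-threshold flanking genes, and the 3 genes nearest to KLK11. Cell type markers, and the epidermal genes KRT16, KLF4 and OVOL1, were named after their values were seen. Gene order and promoters came from RefSeq tables of GRCh38.p14. A single array per group allows no test and limits the precision. Alternatives were other fold thresholds and filters, quantile normalization, median and lowess centring (fraction 0.3), and the brightest probe set. Counting steps were run on simulated data with planted changes far larger than the noise. This checks the code and not the counts given here. Python 3.11.15, numpy 2.4.6, pandas 2.3.3, statsmodels 0.14.6 and matplotlib 3.10.9 were used.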

Additional observations from a re-analysis of the deposited data

How the results depend on the processing

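No paired analysis was possible because each group had 1 array. Under quantile normalization, median centring and lowess centring, none of the 10 members' differences changed sign. The largest move was 0.046 on the log2 scale, and a move under 0.1 was counted as none. The 2 arrays already had nearly equal distributions, with sorted values at most 0.153 apart, so these scalings could move little. Taking the brightest probe set could change nothing, since each member has 1. The count of members at least 1.5-fold lower remained 3 in these settings and at the 2-fold threshold, and was 2 among kept members only. It was 5 when the line was moved to a difference of 0.32 on the log2 scale, where KLK6 and the dim KLK13 joined. The share of all genes past that lower line was not counted, so nothing is read from this count. The count at least 1.5-fold higher was 0 in all settings run. The number of members kept by the level filter was 4 with the filter at the 60th percentile, which dropped KLK8 and KLK11, and 7 when the brighter array was used, which admitted KLK5. Among the 4 kept at the 60th percentile, a count added after the data were seen, 1 member, KLK10, was at least 1.5-fold lower. Over all kept genes, the 2-fold threshold gave 51 lower and 33 higher genes, and without a level filter 690 lower and 704 higher genes were past 1.5-fold, against 334 and 269 in the main setting. These alternatives do not address the absence of replicates, and dim values limit KLK5 and KLK11 most.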

Other observations

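Genes of epidermal differentiation, the tissue setting in which these peptidases are best known, were mostly dim. Of 16 measured, 4 passed the level filter, 1 was at least 1.5-fold lower in siYY1 and 1 at least 1.5-fold higher, and the median difference was -0.03. Among all dim genes, 4.03% were at least 1.5-fold lower and 4.92% at least 1.5-fold higher. Over the 4 that passed the filter the median was -0.24, beside 0.003 over all kept genes. Their differences ran from -0.54 to -0.02, all by less than 1.5-fold. The value nearest to no change hardly differed between the arrays, so nothing is read from their shared sign. SPRR1B, a cornified envelope gene, had a log2 value of 3.66 in siYY1 and 4.58 in siControl, a difference of -0.92. GRHL3, a transcription factor gene of the epidermal barrier, was bright, with 12.26 in siYY1 and 12.80 in siControl, a difference of -0.54. CSTA, which encodes cystatin A, differed by 0.71, and TGM1, which encodes a transglutaminase of the cornified envelope, by 0.55, both from dim values. No explanation of these values was tested.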
